A study of Mus musculus with 84 samples.

Results

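The comparison described here was that of HFDHFB mice with LFDHFB mice, that is, the effect of the recipients' diet on colonic gene expression when both groups carried the same transplanted bacteria. It took in 6 samples, 3 RNA-seq libraries per group, chosen by the start of their names in the count table, out of 12 RNA-seq libraries of transplanted mice and 84 samples in all. Recipients of both groups were germ-free male C57BL/6 mice bought at 5 weeks of age and given stool from age 6 weeks, by gavage 4 times a week for 5 weeks. The donors of the HFB stool were male mice kept on the high fat diet, so both groups were colonised from obese donors. HFDHFB recipients ate the high fat diet, with 60% of calories from fat, and LFDHFB recipients ate the control low fat diet, with 10%. The low fat diet is also the richer of both diets in sucrose. HFDLFB and LFDLFB mice, 3 libraries each, ate the same diets and received stool from lean donors, and are given below only where a value is set beside that of the HFB recipients. The RNA came from cells scraped from the colon, a model in which cells from beneath the epithelium can be carried along, and nothing in the labels says which segment of the colon was taken.

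The colonic epithelium is a single layer of absorptive colonocytes, mucus-secreting goblet cells and rarer hormone-secreting and tuft cells, renewed from stem cells at the crypt base. Dietary lipid reaches these cells directly and through the circulation, and is sensed by nuclear receptors such as the PPARs, which raise genes of fatty acid oxidation. Interferon-stimulated genes are antiviral and antigen-presentation genes that are kept at a low tonic level in the gut by signals from the microbiota.

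The count table held 41281757 to 43945005 counts per HFDHFB library and 42231143 to 47589141 per LFDHFB library. Epithelial identity was clear in all 6 libraries: the 10 epithelial markers tested, among them Epcam, Krt8 and Vil1, summed to 14590 to 17190 CPM in HFDHFB and from 11740 to 18140 CPM in LFDHFB. LFDHFB replicate 3 stood apart from its group. On the first principal component of the 6 libraries, which held 66.4% of the variance of the 2000 most variable genes, it scored 73.13 against -37.61 and -21.77 for LFDHFB replicates 1 and 2, and HFDHFB replicate 1 scored -41.09 against 13.34 and 14.00 for the other HFDHFB libraries. Hoxb13, a homeobox gene of the most distal gut, was at 8.97, 8.76 and 8.79 in HFDHFB and 9.53, 9.22 and 4.04 in LFDHFB (log2 CPM, counts scaled to library size on a log2 scale). Hoxd13, of the same kind, was at 7.05, 6.44 and 3.05 in HFDHFB and 6.55, 6.82 and -0.83 in LFDHFB. Aqp8, a water channel of colonocytes, was at 9.85, 9.77 and 10.40 in HFDHFB and 10.13, 10.87 and 7.82 in LFDHFB. LFDHFB replicate 3 was thus the lowest of the 6 for all 3 genes, and HFDHFB replicate 3 was also low for Hoxd13. Sis, the sucrase-isomaltase of the small intestinal brush border, went the other way, at 1.79, 4.31 and 4.72 in HFDHFB and 2.43, 3.23 and 7.55 in LFDHFB.

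The same library differed in its share of other tissues. The 10 adipocyte markers summed to 138 to 588 CPM in HFDHFB and from 100 to 1441 CPM in LFDHFB, the 10 smooth muscle markers to 2195 to 7706 CPM in HFDHFB and from 2340 to 6053 CPM in LFDHFB, and the 12 markers of enteric neurons and glia to 76.2 to 258 CPM in HFDHFB and from 97.2 to 473 CPM in LFDHFB, with the highest adipocyte and neuronal sums in LFDHFB replicate 3. In libraries of whole scraped tissue, fewer cells of a type and less RNA per cell cannot be told apart. The results below are given with LFDHFB replicate 3, and the values that moved most are also given without it. No replicate pair within a group was alike to sampling noise: the chi-square per gene between replicates of a group was 43.6 to 390.3 over the 12 pairs.

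**Figure D1:**
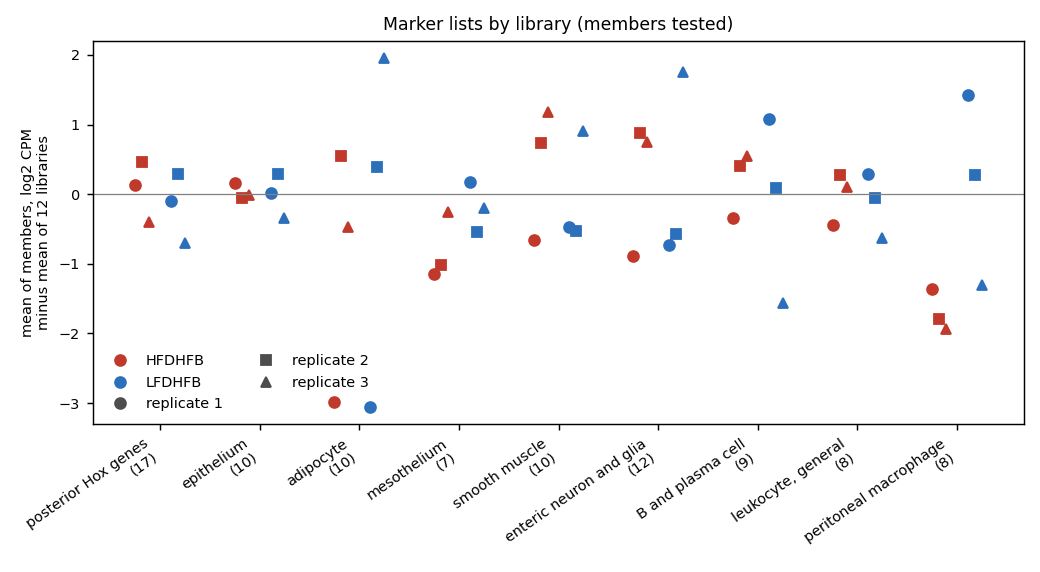
Mean level of marker lists in the 6 HFB libraries, each point 1 library (red, HFDHFB; blue, LFDHFB; shape, replicate number), as log2 CPM minus the mean of all 12 libraries, averaged over the tested members given in brackets. LFDHFB replicate 3 had the highest adipocyte (1.95) and neuronal (1.75) values and the lowest posterior Hox value (-0.70), and replicate 1 of both groups had the lowest adipocyte values.

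No single gene passed an adjusted p of 0.05. Of 15893 genes tested with the quasi-likelihood test of edgeR, 0 were called (0%), and the smallest adjusted p was 0.2995. At an unadjusted p under 0.05, 835 genes were higher (5.25%) and 351 lower (2.21%) in HFDHFB. The 3 libraries of one group all lay above the 3 of the other on log2 CPM for 1187 genes in the direction of HFDHFB (7.47%) and 564 in that of LFDHFB (3.55%). DESeq2, the tool of the study, called 100 genes higher (0.831%) and 26 lower (0.216%) among the 12031 genes to which it gave an adjusted p. Without LFDHFB replicate 3 it called 23 higher and 20 lower, of which 28 in all had also been called with it included. Single libraries moved the edgeR counts at an unadjusted p under 0.05: there were 1067 higher and 1062 lower genes without HFDHFB replicate 1, 486 and 171 without HFDHFB replicate 2, 411 and 279 without HFDHFB replicate 3, 534 and 396 without LFDHFB replicate 2, and 697 and 712 without LFDHFB replicate 3, with 0 at an adjusted p under 0.05 in each case. Everything below therefore describes genes that did not pass the adjusted threshold of edgeR. Levels are log2 CPM in replicates 1, 2 and 3 of each group. A value with ± is edgeR's log2 fold change, HFDHFB minus LFDHFB, with an SE read back from its F statistic. That SE draws on the fit of all 12 libraries and is not the spread of the 6 libraries alone.

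The 5 genes with the smallest p among those higher in every HFDHFB library were compact genes of general cell upkeep, each with an adjusted p of 0.2995. Rnaseh2c, a subunit of the nuclease that removes ribonucleotides from DNA (chr19:5601873-5602959, mm9, plus strand), had log2 CPM of 4.10, 4.26 and 4.45 in HFDHFB and 3.43, 3.40 and 3.40 in LFDHFB, a log2 fold change of 0.87 ± 0.13. Its 3 LFDHFB values were nearly equal, and all lay below the lowest HFDHFB value. Romo1 (chr2:155969889-155971530, plus strand), a mitochondrial membrane protein, was at 5.33, 5.64 and 5.86 in HFDHFB and 4.93, 4.97 and 4.95 in LFDHFB, a log2 fold change of 0.68 ± 0.12. Snhg8 (chr3:123210470-123211254, minus strand), a long non-coding RNA that hosts a small nucleolar RNA, was at 3.94, 4.24 and 4.06 in HFDHFB and 3.40, 3.42 and 3.25 in LFDHFB, with 0.73 ± 0.13. Both groups were clear of each other for each of these genes. Fmc1 (chr6:38484861-38489449, plus strand), an assembly factor of the mitochondrial ATP synthase, was at 5.32, 5.54 and 5.47 in HFDHFB and 4.87, 4.97 and 4.68 in LFDHFB, with 0.60 ± 0.11. Psmb3 (chr11:97564748-97574814, plus strand), a subunit of the proteasome core, was at 6.32, 6.32 and 6.44 in HFDHFB and 5.91, 5.88 and 5.86 in LFDHFB, with 0.48 ± 0.09. DESeq2's adjusted p was 2.84e-06 for Rnaseh2c, 0.00751 for Romo1, 0.000365 for Snhg8, 0.0022 for Fmc1 and 0.00122 for Psmb3, and without LFDHFB replicate 3 all 5 stayed under 0.05, from 0.000585 for Rnaseh2c to 0.0443 for Romo1. In LFB recipients the log2 fold changes of these 5 genes between the diets ran from -0.19 for Snhg8 to 0.01 for Romo1.

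The 5 genes with the smallest p among those lower in every HFDHFB library were of other kinds, again with an adjusted p of 0.2995 each. Snx31, a sorting nexin known from the bladder (chr15:36433817-36485327, minus strand), had few reads, with 2, 4 and 1 counts in HFDHFB and 59, 25 and 26 counts in LFDHFB and a log2 fold change of -3.88 ± 0.68. Slc2a5, which encodes GLUT5, the fructose transporter of the intestinal brush border (chr4:149493453-149518277, plus strand), was at 2.56, 3.06 and 2.75 in HFDHFB and 3.83, 3.81 and 3.90 in LFDHFB, a log2 fold change of -1.04 ± 0.20. Its 3 LFDHFB values were close together and all lay well above the highest HFDHFB value. With LFB bacteria the Slc2a5 values were 2.86, 2.55 and 3.17 in HFDLFB and 3.39, 3.14 and 3.09 in LFDLFB, a log2 fold change of -0.33 ± 0.20. Ptprr (chr10:115455419-115711985, plus strand), a tyrosine phosphatase that acts on MAP kinases, was at 6.41, 6.29 and 6.40 in HFDHFB and 6.91, 7.37 and 7.36 in LFDHFB, with -0.86 ± 0.18. The remaining 2 were interferon-stimulated. Oas3 (chr5:121203107-121227668, minus strand), a sensor of double-stranded RNA, was at 2.45, 2.59 and 2.51 in HFDHFB and 3.09, 3.96 and 3.996 in LFDHFB, with -1.23 ± 0.26. Cd274, which encodes the immune checkpoint ligand PD-L1 (chr19:29441928-29462584, plus strand), was at 2.90, 2.74 and 3.01 in HFDHFB and 3.78, 3.76 and 3.75 in LFDHFB, with -0.88 ± 0.20. DESeq2's adjusted p was 0.000633 for Slc2a5, 0.0138 for Ptprr, 0.00651 for Oas3 and 0.0156 for Cd274, and it gave none for Snx31. Without LFDHFB replicate 3 it was 0.0146 for Slc2a5 and 0.00355 for Snx31, which was then called. It was 0.1 for Ptprr, 0.0691 for Oas3 and 0.0975 for Cd274, so that these 3 calls were lost. In LFB recipients the log2 fold changes of the 5 lower genes between the diets ran from -1.45 for Snx31 to 0.35 for Cd274. Snx31 was lower in every HFDLFB library.

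**Figure D2:**
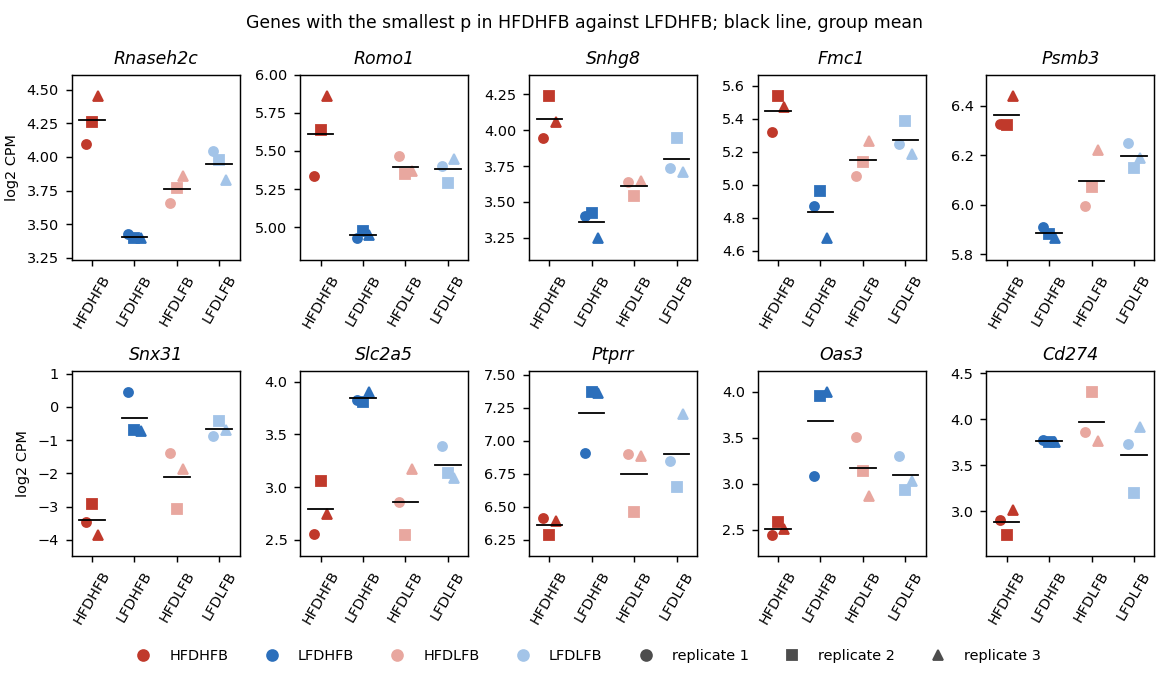
Log2 CPM of the 5 genes with the smallest p in each direction, each point 1 library of the 4 recipient groups (dark colours, HFB recipients; light colours, LFB recipients), with a line at the group mean. In HFB recipients the 3 HFDHFB and 3 LFDHFB points did not overlap for any of the 10 genes, while for Rnaseh2c the LFB points overlapped between diets, from 3.66 to 4.05.

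Interferon-stimulated genes were lower in HFDHFB across most of the list. Of the 52 members tested, 47 had a log2 fold change below 0, 12 were lower and 1 higher at an unadjusted p under 0.05, against 2.21% and 5.25% of all genes, and the median was -0.44 against -0.03 over all genes. The summed level of the list ran from 1407 to 1678 CPM in HFDHFB and from 1834 to 2406 CPM in LFDHFB, without overlap. Ido1, the tryptophan-degrading enzyme, was at 4.36, 4.197 and 4.77 in HFDHFB and 5.43, 5.70 and 5.41 in LFDHFB (-1.06 ± 0.25). Ddx60, a helicase of antiviral RNA sensing, was at 4.52, 3.46 and 4.27 in HFDHFB and 5.29, 5.62 and 5.56 in LFDHFB (-1.34 ± 0.35). Oasl2, a relative of Oas3, was at 4.92, 5.03 and 5.59 in HFDHFB and 5.93, 6.20 and 5.89 in LFDHFB (-0.80 ± 0.23). All 3 were lower in every HFDHFB library than in any LFDHFB library. Stat2, a transcription factor that carries the interferon signal, was at 4.91, 4.64 and 4.81 in HFDHFB and 5.11, 5.26 and 5.04 in LFDHFB (-0.35 ± 0.11), and its groups did not overlap either. Irf7, a main regulator of type I interferon genes, was at 7.08, 7.01 and 7.34 in HFDHFB and 7.33, 7.78 and 7.91 in LFDHFB (-0.54 ± 0.20), where 1 HFDHFB library lay above the lowest LFDHFB library. Lgals3bp (-0.52 ± 0.16), Zbp1 (-1.09 ± 0.42), Parp14 (-0.50 ± 0.21) and Ifit1 (-1.24 ± 0.55, or -0.49 without LFDHFB replicate 3), the last 3 with overlapping groups, were also lower at an unadjusted p under 0.05, and the lower genes beyond Oas3 and Cd274 are named after their values were seen. The exception was Isg20, an interferon-induced exonuclease, at 4.51, 4.55 and 4.62 in HFDHFB and 4.32, 4.23 and 3.998 in LFDHFB (0.37 ± 0.15).

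DESeq2 called 4 of these members, all lower: Oas3, Cd274, Ido1 (adjusted p = 0.0174) and Ddx60 (adjusted p = 0.0326). DESeq2 without LFDHFB replicate 3 called none of the 4, with an adjusted p of 0.0691 for Oas3, 0.0975 for Cd274, 0.0671 for Ido1 and 0.137 for Ddx60. In edgeR without that library, the median of the list was -0.45 and 21 of its members were lower at an unadjusted p under 0.05, among 712 lower genes in all. The spread inside the groups was of the same order as the difference for the weaker members: averaged over the list, the libraries stood at -0.47, -0.40 and -0.10 in HFDHFB and 0.00, 0.30 and 0.03 in LFDHFB, as log2 CPM against the mean of the 12 libraries, so that HFDHFB replicate 3 lay just below the lowest LFDHFB library. In LFB recipients the median of the same genes was 0.02. There, 1 member was higher and 1 lower at an unadjusted p under 0.05, beside 568 and 279 of 15893 genes. General leukocyte markers overlapped between the groups, at -0.44, 0.28 and 0.10 in HFDHFB and 0.30, -0.06 and -0.62 in LFDHFB as list means. Other immune markers were mixed. Ptprc, which encodes CD45, was lower in every HFDHFB library (-0.53 ± 0.18), but 6 of the 8 general leukocyte genes were above 0. T cell genes had a median of -0.38, with list means that overlapped between the groups. Medians were -0.02 for B and plasma cell genes, 0.21 for macrophage and dendritic cell genes and 0.26 for mast cell and granulocyte genes. The part of immune cells in the interferon result was not tested.

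**Figure D3:**
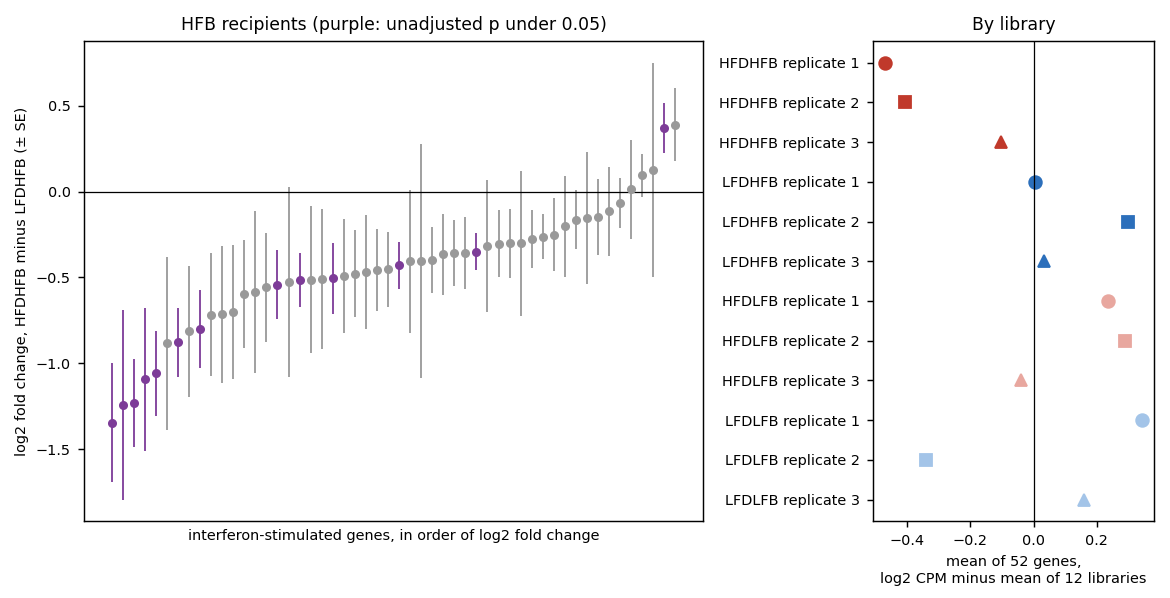
Left, log2 fold change ± SE of the 52 interferon-stimulated genes tested, HFDHFB minus LFDHFB, in order of size; purple marks an unadjusted p under 0.05 and the line marks 0. Right, the mean of the 52 genes in each of the 12 libraries, as log2 CPM minus the mean of all libraries; the 3 HFDHFB libraries lie at -0.47, -0.40 and -0.10, below the 3 LFDHFB libraries, and of the LFB libraries LFDLFB replicate 2 is the lowest, at -0.34.

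Of the circadian clock list, core clock genes and their output regulators, all 20 members had a log2 fold change below 0, with a median of -0.30. At an unadjusted p under 0.05, 3 were lower, beside 2.21% of all genes, and the summed level overlapped, from 1472 to 1582 CPM in HFDHFB and from 1451 to 2247 CPM in LFDHFB. Nr1d2, which encodes the clock repressor REV-ERB beta, was at 7.13, 6.93 and 6.66 in HFDHFB and 7.42, 7.36 and 7.497 in LFDHFB (-0.51 ± 0.14). Its DESeq2 adjusted p was 0.0484, or 0.261 without LFDHFB replicate 3, so that the call was lost. Tef, an output transcription factor, was at 7.76, 7.87 and 7.69 in HFDHFB and 8.21, 8.32 and 7.93 in LFDHFB (-0.39 ± 0.14). Both were lower in every HFDHFB library. Ciart, a clock repressor, was at 4.19, 4.28 and 4.35 in HFDHFB and 5.51, 5.14 and 4.16 in LFDHFB (-0.77 ± 0.32), where LFDHFB replicate 3 lay below all HFDHFB libraries. The list means showed the same library apart: they were -0.23, -0.20 and -0.20 in HFDHFB and 0.12, 0.24 and -0.20 in LFDHFB, so that LFDHFB replicate 3 was at the HFDHFB level. Without it the median was -0.47 and 10 of 20 members were lower at an unadjusted p under 0.05, beside 712 of 16073 genes. In LFB recipients the median was 0.06. The time of day at which tissue was taken is not given in the sources used here.

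Antigen presentation and antimicrobial genes leaned the same way with more spread. Of 13 MHC class II genes, 11 were below 0, with a median of -0.36. At an unadjusted p under 0.05, 1 was lower, beside 2.21% of all genes. Without LFDHFB replicate 3 the median was -0.57 and 4 were lower, beside 712 of 16073 genes in all. H2-DMb1, which helps load peptides, was at 1.87, 2.57 and 2.46 in HFDHFB and 3.17, 3.73 and 2.34 in LFDHFB (-0.86 ± 0.38), and Ciita, the transactivator of the class II genes, was at 1.001, 1.31 and 1.69 in HFDHFB and 2.43, 2.94 and 1.07 in LFDHFB (-0.99 ± 0.46). For both, LFDHFB replicate 3 lay among the HFDHFB values. Of 32 epithelial antimicrobial and microbe-response genes, 25 were below 0, with a median of -0.30 that was -0.58 without LFDHFB replicate 3. Itln1, a lectin that binds microbial sugars, was at 1.73, 1.43 and 1.57 in HFDHFB and 3.26, 2.91 and 1.64 in LFDHFB (-1.19 ± 0.48). With LFB bacteria it was at -2.39 ± 0.50 (HFDLFB minus LFDLFB), lower in every HFDLFB library, while the median of the list was 0.01. Saa3, a serum amyloid A, was at 2.29, 3.76 and 3.79 in HFDHFB and 4.81, 4.28 and 5.05 in LFDHFB (-1.32 ± 0.63). Saa3 was lower in every HFDHFB library, while LFDHFB replicate 3 was within the HFDHFB level for Itln1. Reg3b, an antimicrobial lectin named after its values were seen, differed widely among libraries of one group, at 0.69, 5.14 and 4.75 in HFDHFB and 4.21, 6.19 and 8.63 in LFDHFB.

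Genes of the mitochondrion, ribosome and proteasome stood out on the higher side. These 4 lists were written after the values were seen, from gene name stems, and are given as description. At an unadjusted p under 0.05, 5.25% of all genes were higher and 2.21% lower. Of 85 subunits of the respiratory chain and ATP synthase, 52 were higher (61.2%) and 0 lower at that threshold. In this list 84 had a log2 fold change above 0, and the median was 0.38. The summed level of the list ran from 23730 to 28380 CPM in HFDHFB and from 18380 to 21750 CPM in LFDHFB. Ndufb11, of complex I, was at 7.59, 7.91 and 7.96 in HFDHFB and 7.25, 7.18 and 7.17 in LFDHFB (0.63 ± 0.12). Of 77 mitochondrial ribosomal proteins, 77 were above 0 and 50 higher at an unadjusted p under 0.05, with a median of 0.31. Mrpl12 was at 7.67, 7.92 and 8.11 in HFDHFB and 7.32, 7.18 and 7.16 in LFDHFB (0.69 ± 0.14). Of 80 cytosolic ribosomal proteins, whose reads can be shared with pseudogenes, 46 were higher, with a median of 0.44. Their summed level overlapped, from 35240 to 48980 CPM in HFDHFB and from 25860 to 37170 CPM in LFDHFB, with HFDHFB replicate 1 below LFDHFB replicate 1. The sums of the mitochondrial ribosome and the proteasome did not overlap. Of 37 proteasome subunits, 12 were higher, with a median of 0.18. Without LFDHFB replicate 3, 697 of 16073 genes were higher at an unadjusted p under 0.05. Among them were 33 of the respiratory chain, 32 of the mitochondrial ribosome, 13 of the cytosolic ribosome and 8 of the proteasome. The medians of these lists were then 0.30, 0.27, 0.32 and 0.17. In LFB recipients the medians of these 4 lists were -0.11, -0.12, -0.19 and -0.06 in the same order.

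The higher side also followed transcript length. Of 792 genes whose longest protein-coding transcript was under 1000 bases, 255 were higher (32.2%) and 3 lower at an unadjusted p under 0.05. Of all genes, 5.25% were higher and 2.21% lower. The median log2 fold change of these short genes was 0.34. The median was 0.18 from 1000 to 1500 bases, 0.06 up to 2500, -0.05 up to 4000, -0.14 up to 6000 and -0.20 above 6000. Of the 87 genes that DESeq2 called higher and that had a transcript length, 57.5% were under 1000 bases, against 5.66% of genes tested. HFDHFB replicates 2 and 3 carried the highest values for the short genes, at 0.25 and 0.32, LFDHFB replicate 3 the lowest, at -0.26, and HFDHFB replicate 1 lay between, at -0.02. Base composition followed the same order: the median log2 fold change was -0.11 for transcripts under 42% GC and 0.11 for those over 58%.

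When each library's own curve on transcript length was removed, an alternative added after seeing the data, the median of the respiratory chain list went from 0.38 to 0.09, that of the mitochondrial ribosome from 0.31 to 0.10, that of the cytosolic ribosome from 0.44 to 0.13 and that of the proteasome from 0.18 to 0.00. The respiratory chain list then held 14 genes higher at an unadjusted p under 0.05, among 386 in all. The log2 fold change went from 0.87 to 0.62 for Rnaseh2c, from 0.68 to 0.25 for Romo1 and from 0.48 to 0.14 for Psmb3. Snhg8 and Fmc1 had no length in the annotation and were left as they were. The interferon list, with a median transcript of 2669 bases against 2988 for all genes tested, moved from -0.44 to -0.42. It then held 16 genes lower at an unadjusted p under 0.05, among 380 in all. The clock list moved from -0.30 to -0.22, and Slc2a5 stayed at -1.04.

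**Figure D4:**
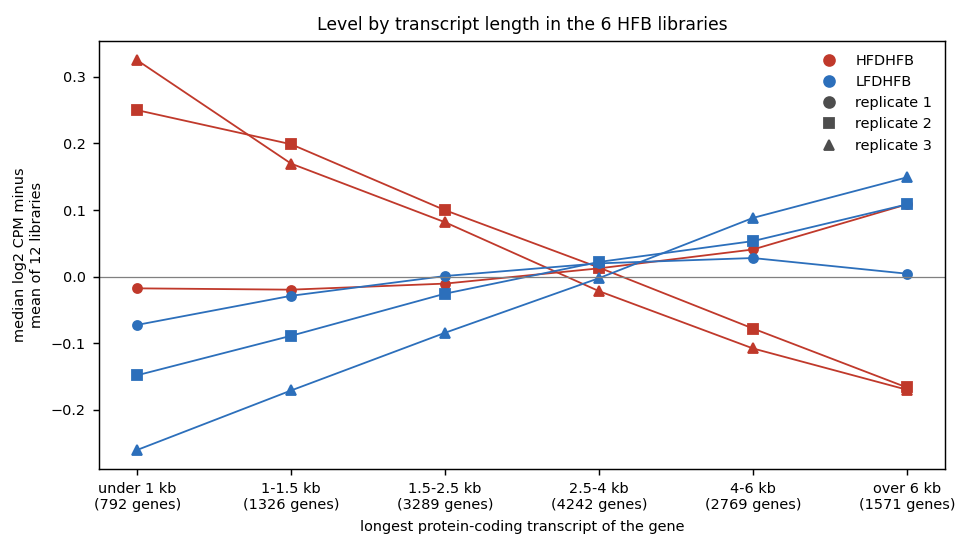
Median level of genes in 6 classes of transcript length (x axis, with the number of genes), as log2 CPM minus the mean of the 12 libraries, 1 line for each HFB library. HFDHFB replicates 2 and 3 fall from 0.25 and 0.32 in the shortest class to -0.17 in the longest, LFDHFB replicate 3 runs from -0.26 to 0.15, and HFDHFB replicate 1 stays near 0 in the shorter classes.

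Among genes that handle dietary fat, the counts differed with and without LFDHFB replicate 3. Of 25 genes of fatty acid oxidation and ketogenesis the median was 0.09, or 0.14 without LFDHFB replicate 3. At an unadjusted p under 0.05, 1 was higher (4%) and 0 lower, a share below the 5.25% higher among all genes. Without LFDHFB replicate 3, 5 were higher and 1 lower, beside 697 and 712 of 16073 genes. Acadvl, the very long chain acyl-CoA dehydrogenase of mitochondria, was at 7.88, 7.84 and 7.92 in HFDHFB and 7.54, 7.62 and 7.73 in LFDHFB (0.25 ± 0.10), higher in every HFDHFB library. Ech1, an enoyl-CoA isomerase, was at 0.33 ± 0.15. Of 23 PPAR targets the median was -0.20 and, without LFDHFB replicate 3, 0.35. Ucp3, a mitochondrial carrier, had 1, 9 and 4 counts in HFDHFB and 2, 29 and 80 counts in LFDHFB (-2.91 ± 1.28, or -1.71 without LFDHFB replicate 3), and Pex11a, of peroxisome division, was at -0.33 ± 0.17. The 24 genes of cholesterol synthesis and uptake had a median of 0.00 and none passed an unadjusted p of 0.05. Stard4, a sterol transfer protein, was at -0.37 ± 0.17 and Insig1, the brake on SREBP processing, at -0.41 ± 0.20.

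Fatty acid synthesis genes were lower in the values but varied with adipocyte markers. Of 21 members 17 were below 0, with a median of -0.29 that was -0.11 without LFDHFB replicate 3. At an unadjusted p under 0.05, 2 were lower, beside 2.21% of all genes. Scd1, the stearoyl-CoA desaturase, was at 4.93, 7.08 and 5.76 in HFDHFB and 6.25, 8.53 and 11.03 in LFDHFB (-3.53 ± 1.12), overlapping between groups. Thrsp, a regulator of lipogenesis, was at -0.64, 2.59 and 1.38 in HFDHFB and 1.43, 3.10 and 6.09 in LFDHFB (-3.11 ± 1.26). The highest value of both was that of LFDHFB replicate 3, which also had the highest adipocyte sum, and replicate 1 of each group had the lowest value of both and the lowest adipocyte list mean. Without LFDHFB replicate 3 the log2 fold changes were -1.60 for Scd1 and -0.87 for Thrsp. DESeq2's adjusted p for Scd1 was 0.0439, or 0.565 without LFDHFB replicate 3, so that the call was lost. The part of adipocyte RNA in these values was not tested.

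Triglyceride packaging and export genes had a median of -0.19 over 18 members, and 0.01 without LFDHFB replicate 3. At an unadjusted p under 0.05, 1 member, Apoa4, was higher (5.56%) and 0 lower, a share near the 5.25% higher among all genes. Apoa4, an apolipoprotein that the intestine secretes on chylomicrons after fat, had 25, 13 and 177 counts in HFDHFB and 4, 6 and 2 counts in LFDHFB, higher in every HFDHFB library, with a log2 fold change of 4.22 ± 1.06. In LFB recipients it had 7, 19 and 9 counts in HFDLFB and 0, 0 and 1 counts in LFDLFB, and with either donor the 3 high fat diet libraries held more counts than the 3 low fat diet libraries. Apoa1, of the same gene cluster, had 21, 54 and 185 counts in HFDHFB and 19, 28 and 26 counts in LFDHFB (1.91 ± 0.94), and HFDHFB replicate 3 was the highest library for both genes.

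Sugar genes were represented by Slc2a5 above and Slc5a1, the sodium-glucose cotransporter SGLT1, which was at 7.95, 7.49 and 7.496 in HFDHFB and 8.24, 8.19 and 8.01 in LFDHFB (-0.49 ± 0.23) and lower in every HFDHFB library. The 18 sugar genes had a median of -0.09, and Slc2a5 was the only member at an unadjusted p under 0.05. That 1 lower gene was 5.56% of the list, beside 2.21% of all genes. Of 10 genes of bile acid sensing and transport, 9 were below 0. At an unadjusted p under 0.05, 2 were lower and 1 higher, beside 2.21% and 5.25% of all genes. Abcc2, which exports conjugates, was at 1.42, 0.80 and 1.97 in HFDHFB and 3.14, 2.31 and 2.30 in LFDHFB (-1.18 ± 0.36), without overlap. Slc10a2, the apical bile acid transporter, was at 5.95, 6.87 and 6.44 in HFDHFB and 6.69, 6.83 and 9.59 in LFDHFB (-1.89 ± 0.74), with -0.29 when LFDHFB replicate 3 was left out.

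Xenobiotic genes gave 4 lower and 0 higher of 59 at an unadjusted p under 0.05, beside 2.21% and 5.25% of all genes. Their median was -0.23, or 0.04 without LFDHFB replicate 3. Abcb1a, the drug efflux pump P-glycoprotein, was at 9.31, 8.97 and 9.15 in HFDHFB and 9.69, 9.94 and 10.78 in LFDHFB (-1.07 ± 0.28), without overlap, and DESeq2's adjusted p was 0.0329. Without LFDHFB replicate 3 its log2 fold change was -0.67 and DESeq2's adjusted p 0.216, so that the call was lost. Ahrr, the repressor of the aryl hydrocarbon receptor and itself induced by it, had 8, 4 and 0 counts in HFDHFB and 25, 16 and 30 counts in LFDHFB (-2.49 ± 0.82). In the NRF2 antioxidant list of 20 genes, Prdx1, a peroxiredoxin, was at 9.46, 9.65 and 9.67 in HFDHFB and 9.16, 9.11 and 9.31 in LFDHFB (0.40 ± 0.13), higher in every HFDHFB library, and Gclc, of glutathione synthesis, was at -0.35 ± 0.18, around a median of -0.05.

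**Figure D5:**
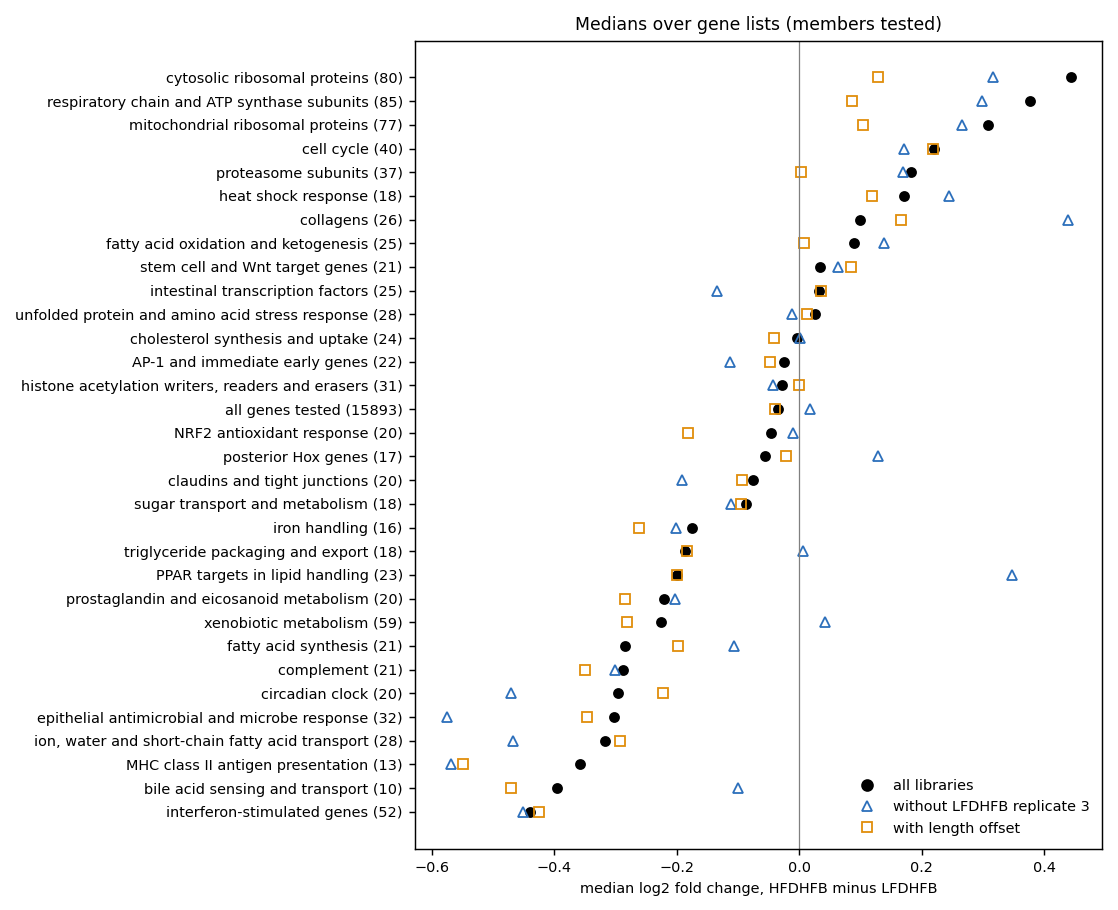
Median log2 fold change, HFDHFB minus LFDHFB, of the gene lists (tested members in brackets) and of all genes, for all libraries (black), without LFDHFB replicate 3 (blue) and with the length offset (orange). The interferon list stays at -0.44, -0.45 and -0.42 in this order, while the cytosolic ribosomal list goes from 0.44 to 0.13 with the offset and the PPAR list from -0.20 to 0.35 without the library.

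Transport and epithelial regulators differed in single genes. Of 28 genes of ion, water and short-chain fatty acid transport, 2 were lower and 1 higher at an unadjusted p under 0.05, around a median of -0.32. Of all genes, 2.21% were lower and 5.25% higher. Without LFDHFB replicate 3, 7 of the 28 were lower and 0 higher, around -0.47, beside 712 and 697 of 16073 genes. Nr3c2, the mineralocorticoid receptor of aldosterone-driven sodium uptake, was at 7.19, 6.69 and 7.11 in HFDHFB and 7.59, 7.69 and 7.31 in LFDHFB (-0.53 ± 0.18), lower in every HFDHFB library. Hsd11b2, which protects that receptor from glucocorticoids, was at 9.02, 8.93 and 8.97 in HFDHFB and 8.64, 8.71 and 8.12 in LFDHFB (0.46 ± 0.16, or 0.29 without LFDHFB replicate 3), higher in every HFDHFB library. Slc4a1, the erythrocyte anion exchanger, had 0, 1 and 0 counts in HFDHFB and 2, 27 and 1 counts in LFDHFB, a difference carried by LFDHFB replicate 2, which among HFB libraries also had the most counts of Alas2, the haem synthesis gene of red cells (388). Among 25 intestinal transcription factors, around a median of 0.03, Prdm1 was at 1.44, 1.30 and 1.73 in HFDHFB and 1.96, 2.23 and 2.72 in LFDHFB (-0.84 ± 0.31) and Spdef, which drives goblet cell maturation, at 5.89, 6.34 and 6.33 in HFDHFB and 5.52, 5.59 and 5.60 in LFDHFB (0.63 ± 0.24), each without overlap.

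Of 13 goblet cell markers 10 were above 0, and 3 were higher and 0 lower at an unadjusted p under 0.05, beside 5.25% and 2.21% of all genes. Their median was 0.24, or 0.09 without LFDHFB replicate 3 and 0.08 with the length offset, and their summed level overlapped, from 18950 to 25860 CPM in HFDHFB and from 16870 to 26450 CPM in LFDHFB. Ramp1, a receptor partner for calcitonin gene-related peptide, was at 6.38, 7.05 and 7.23 in HFDHFB and 6.13, 5.96 and 6.05 in LFDHFB (0.88 ± 0.22), and DESeq2's adjusted p was 0.0429, or 0.157 without LFDHFB replicate 3, so that the call was lost. Spink4, a secreted protease inhibitor, was at 8.54, 9.01 and 9.09 in HFDHFB and 8.26, 8.27 and 7.53 in LFDHFB (0.84 ± 0.25). Both and Spdef were higher in every HFDHFB library. Spink4 has the shortest transcript of the list, and its log2 fold change was 0.35 with the length offset, while that of Ramp1 was 0.85. Muc2, the main mucin, was at 11.10, 10.81 and 10.56 in HFDHFB and 10.06, 10.58 and 10.59 in LFDHFB (0.41 ± 0.43). Retnlb, a goblet product that responds to microbes, was lower in every HFDHFB library, at 7.12, 7.39 and 5.99 in HFDHFB and 7.69, 7.70 and 7.64 in LFDHFB (-0.73 ± 0.52). In LFB recipients the median of the list was -0.41, with 5 markers lower at an unadjusted p under 0.05, beside 279 of 15893 genes.

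Of 40 cell cycle genes 36 were above 0, with a median of 0.22, and the summed level overlapped, from 614 to 924 CPM in HFDHFB and from 588 to 730 CPM in LFDHFB. At an unadjusted p under 0.05, 2 were higher, a share near the 5.25% of all genes: Rrm2, a subunit of ribonucleotide reductase, at 3.29, 3.12 and 2.84 in HFDHFB and 2.35, 2.49 and 2.75 in LFDHFB (0.56 ± 0.24), and Ube2c, of mitotic exit, at 4.67, 4.49 and 4.46 in HFDHFB and 3.50, 4.18 and 3.93 in LFDHFB (0.65 ± 0.29). In the fit without LFDHFB replicate 3, 1 was higher, and with the length offset 0. Stem cell and Wnt target genes had a median of 0.03, and none of 21 passed an unadjusted p of 0.05, the nearest being Rnf43 (-0.43 ± 0.30) and Ascl2 (0.82 ± 0.67). Claudins and tight junction genes (20, median -0.08) and histone acetylation writers, readers and erasers (31, median -0.03) held none at an unadjusted p under 0.05 either. Their nearest members were Tjp1 (-0.36 ± 0.23), Cldn4 (0.32 ± 0.23), Kat6b (-0.49 ± 0.24) and Hdac2 (0.31 ± 0.17).

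Stress and signalling lists were mixed. Of 18 heat shock genes 17 were above 0, with a median of 0.17. Hspe1, the mitochondrial co-chaperonin, was at 5.71, 6.01 and 5.88 in HFDHFB and 5.50, 5.21 and 5.45 in LFDHFB (0.48 ± 0.16) and its log2 fold change was 0.14 with the length offset. Bag3, a co-chaperone, was at 0.37 ± 0.17, or 0.21 without LFDHFB replicate 3. Among 22 AP-1 and immediate early genes, Zfp36, which destabilises cytokine mRNAs, was at 6.27, 6.32 and 6.42 in HFDHFB and 6.64, 7.01 and 6.81 in LFDHFB (-0.49 ± 0.14), and Jund, an AP-1 subunit, was at 8.07, 8.19 and 8.38 in HFDHFB and 7.74, 7.92 and 7.36 in LFDHFB (0.53 ± 0.17), in opposite directions and without overlap, around a median of -0.02. In LFB recipients (HFDLFB minus LFDLFB) Zfp36 was at -0.44 ± 0.14 and Jund at -0.48 ± 0.17, both lower in every HFDLFB library. The unfolded protein list (28 genes, median 0.03) had no member at an unadjusted p under 0.05, with Dnajb9 (-0.44 ± 0.21) and Chac1 (-0.93 ± 0.51) nearest. Of 20 prostaglandin and eicosanoid genes, Ptgr1, which inactivates prostaglandins and leukotrienes, was at 4.79, 4.81 and 4.87 in HFDHFB and 4.12, 4.06 and 4.08 in LFDHFB (0.74 ± 0.15), with the groups well apart, and DESeq2's adjusted p was 0.00751. Timp1, a protease inhibitor of the matrix, led the 26 genes of collagens and matrix at 1.37, 2.54 and 2.10 in HFDHFB and 0.18, 1.04 and 0.77 in LFDHFB (1.40 ± 0.56), followed by Lox (1.05 ± 0.60). The complement gene C2 (-1.06 ± 0.52) was lower in every HFDHFB library without passing an unadjusted p of 0.05. Of iron genes, Trf, transferrin, was at -1.25 ± 0.56, or -0.75 without LFDHFB replicate 3, and Heph, the ferroxidase of basolateral export, at -0.38 ± 0.20. Of posterior Hox genes, none of 17 passed an unadjusted p of 0.05, with Hoxa7 (0.39 ± 0.21) and Hoxc10 (-2.23 ± 1.60) nearest, and Hoxc10 had 3, 2 and 3 counts in HFDHFB and 2, 2 and 37 counts in LFDHFB, so that its value rested on LFDHFB replicate 3.

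Markers of cells other than goblet cells gave few differences. Epithelial markers had a median of 0.00 and absorptive colonocyte markers -0.30, with Krt18 (0.27 ± 0.20), Krt20 (-0.27 ± 0.28), Car1 (-1.02 ± 0.51, or -0.26 without LFDHFB replicate 3) and Cdhr5 (-0.28 ± 0.23) the members of smallest p. Among enteroendocrine genes the peptide hormone Pyy was at 6.11, 7.37 and 6.87 in HFDHFB and 6.23, 6.48 and 5.65 in LFDHFB (0.71 ± 0.29) and Gcg, the source of GLP-1, at 5.23, 5.44 and 5.56 in HFDHFB and 4.59, 4.54 and 5.13 in LFDHFB (0.63 ± 0.33), the latter higher in every HFDHFB library, while the median of the 16 genes was -0.20, or 0.57 without LFDHFB replicate 3. Both hormone transcripts are short, and with the length offset they were at 0.27 and 0.37. Tuft cell genes had a median of 0.01, or 0.59 without LFDHFB replicate 3, with Alox5ap (0.41 ± 0.27) and Ltc4s (0.35 ± 0.41) nearest. Ptprc, which encodes the leukocyte antigen CD45, was at 3.76, 3.40 and 3.66 in HFDHFB and 4.25, 4.10 and 4.09 in LFDHFB (-0.53 ± 0.18), lower in every HFDHFB library, but the 8 general leukocyte genes had a median of 0.11, with Cd52 at 0.52 ± 0.34. Among T cell genes (median -0.38) Cd8a was at -0.71 ± 0.35 and Gzma at -0.85 ± 0.48, among B and plasma cell genes (median -0.02, or -0.49 without LFDHFB replicate 3) Ms4a1 was at -0.78 ± 0.72 and Tnfrsf17 at 0.62 ± 0.59, and none of these 4 passed an unadjusted p of 0.05. Macrophage and dendritic cell genes (median 0.21) were led by Itgax (-0.55 ± 0.32) and C1qa (0.44 ± 0.28), and mast cell genes (median 0.26) by Mcpt2 (0.79 ± 0.42) and Mcpt1 (0.69 ± 0.41), again with none at an unadjusted p under 0.05.

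Connective tissue markers differed within the groups as much as between them. All 10 adipocyte genes had a log2 fold change below 0, with a median of -1.25, which was 0.19 without LFDHFB replicate 3. Plin1, the coat of lipid droplets, was at -2.64, 2.82 and 1.70 in HFDHFB and -1.03, 3.04 and 4.98 in LFDHFB (-1.96 ± 1.30), and Lpl, lipoprotein lipase, was at 4.30, 6.59 and 5.24 in HFDHFB and 3.28, 6.18 and 8.43 in LFDHFB (-1.47 ± 1.07). All 10 smooth muscle genes were above 0, with a median of 0.50, or 1.03 without LFDHFB replicate 3: Des was at 0.77 ± 0.69 and Smtn at 0.58 ± 0.52. Further medians were 0.11 for fibroblasts, with Col1a1 (0.60 ± 0.41) and Col1a2 (0.42 ± 0.30), -0.29 for endothelium, with Lyve1 (-0.36 ± 0.20) and Kdr (-0.62 ± 0.38), and -0.19 for enteric neurons and glia, with Elavl4 (-0.91 ± 0.79) and Nos1 (-0.75 ± 0.82). The fibroblast median without LFDHFB replicate 3 was 0.32 and that of neurons and glia 0.90. Of the pancreatic list 4 genes were tested, with Clps at 0.40 ± 0.64 and Cela1 at 0.30 ± 0.62, and of the erythrocyte list 1, Alas2, at -1.54 ± 0.80. None of the genes named in these sentences passed an unadjusted p of 0.05.

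A group of genes known from macrophages was higher in LFDHFB replicates 1 and 2 than in the other HFB libraries. Alox15, a lipoxygenase and the second of the eicosanoid genes, was at -0.02, -1.21 and -1.57 in HFDHFB and 3.89, 1.90 and -0.88 in LFDHFB (-3.54 ± 1.099), and mesothelial markers, which line the peritoneal cavity, all had log2 fold changes below 0 (median -0.60, Lrrn4 at -1.09 ± 0.64 and Bnc1 at -0.94 ± 0.60). DESeq2's adjusted p for Alox15 was 0.067, or 0.0165 without LFDHFB replicate 3. Because Alox15 is known from macrophages of the peritoneal cavity, a list of 8 genes known from those cells, Alox15 among them, was written after these values were seen. Their list means were -1.37, -1.79 and -1.94 in HFDHFB and 1.43, 0.28 and -1.30 in LFDHFB, on the scale of the other list means. Since Alox15 prompted the list, no count of it is read as a result. Prg4, a lubricating proteoglycan, was at -0.31, -2.35 and -0.62 in HFDHFB and 4.46, 2.51 and -1.72 in LFDHFB (-4.202 ± 1.28), Selp, P-selectin, was at -1.64, -0.58 and -1.92 in HFDHFB and 1.62, 0.68 and 0.03 in LFDHFB (-2.29 ± 0.64), and the coagulation factor F5 was at -0.31, -0.68 and 0.06 in HFDHFB and 2.78, 1.98 and -0.40 in LFDHFB (-2.29 ± 0.73). Outside the list, Marco, a scavenger receptor of macrophages, was at -2.28, -3.91 and -2.81 in HFDHFB and 1.72, 0.90 and -2.06 in LFDHFB (-4.21 ± 1.09) and Cd5l, a macrophage-secreted protein, at -0.08, -1.44 and -0.98 in HFDHFB and 2.90, 1.76 and -0.40 in LFDHFB (-2.77 ± 0.84). For these genes LFDHFB replicates 1 and 2 were high. LFDHFB replicate 3 was closer to the HFDHFB libraries except for Selp, where its 0.03 lay above every HFDHFB value. Gata6, the transcription factor of those macrophages but one that colonic epithelium also expresses, was at 5.65, 5.25 and 5.05 in HFDHFB and 5.48, 5.44 and 4.93 in LFDHFB. The list of general macrophage and dendritic cell genes did not separate the groups, with sums of 292 to 355 CPM in HFDHFB and from 214 to 440 CPM in LFDHFB. In LFB recipients, where Marco was at 1.97, 1.62 and 2.39 in HFDLFB and 2.55, 0.75 and 3.77 in LFDLFB, the median of the 8 genes was -1.07.

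The difference of the diet effect between donors was tested in the same fit. With HFB bacteria and with LFB bacteria alike 0 genes passed an adjusted p of 0.05 (0% for HFDLFB against LFDLFB, smallest adjusted p 0.8811), and 0 passed for the difference between donors (0%, smallest adjusted p 0.386). At an unadjusted p under 0.05, edgeR gave 847 genes for the diet effect in LFB recipients and 1794 for the difference, and DESeq2 called 5 higher and 4 lower genes for the former and 57 and 16 for the latter. By edgeR no diet effect above was thus shown to be particular to the HFB recipients. The difference between donors, as HFB minus LFB diet effect on the log2 scale with its SE, was -1.32 ± 0.36 for Oas3, -1.23 ± 0.28 for Cd274 and 1.06 ± 0.19 for Rnaseh2c. Cd274 in LFB recipients was at 3.86, 4.29 and 3.77 in HFDLFB and 3.73, 3.20 and 3.91 in LFDLFB, and Oas3 at 3.51, 3.14 and 2.86 in HFDLFB and 3.31, 2.93 and 3.03 in LFDLFB, both overlapping between diets. Adipocyte markers were higher on the high fat diet in LFB recipients, with a median of 3.26 against -1.25 in HFB recipients, and mesothelial markers likewise, with 1.58 against -0.60, and the part of these tissues in the difference between donors was not tested.

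H3K27ac, a histone mark of active promoters and enhancers, was deposited as peak lists for 2 HFDHFB and 3 LFDHFB libraries. The paper's ChIP-seq used isolated epithelial cells, while the RNA came from scraped cells. A missing peak at a gene read from other cells is therefore not a statement about those cells. A peak lay within 1000 bp of the start of 73.3% and 75.9% of the 15864 tested genes with 1 locus in the HFDHFB libraries and of 73.3%, 73.0% and 73.2% in the LFDHFB libraries. Genes higher at an unadjusted p under 0.05 had such a peak in 94.9% to 95.7% of cases over the 5 libraries, and those lower in 70.3% to 74.6%, so that the share did not separate the diets. The starts of Rnaseh2c, Romo1, Snhg8, Fmc1, Psmb3 and Cd274 were marked in all 5 libraries, and those of Snx31 and Ptprr in none. Slc2a5 was marked in 2 of 2 HFDHFB and 1 of 3 LFDHFB libraries, and Oas3 in 0 of 2 HFDHFB and 2 of 3 LFDHFB libraries. These presence calls were not tested between the diets, and the depth behind the peaks is not given in the sources used here. Of interferon-stimulated genes 80.8% and 86.5% were marked in HFDHFB and 80.8% to 86.5% in LFDHFB.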

How the data were processed

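The 12 colonic RNA-seq libraries of transplanted mice were used, 3 per group, with 39904191 to 48026846 counts each, grouped by their labels. The authors aligned reads to mm9 with STAR 2.5 and deposited raw read counts per gene from featureCounts 1.5.0-p1. Here, 9601 of 25494 genes were removed by filterByExpr, TMM factors were computed, and the 4 groups were fitted together with the quasi-likelihood F-test of edgeR 4.0.16, with Benjamini-Hochberg adjustment over all 15893 genes and a threshold of 0.05. Log2 CPM used a prior count of 2. DESeq2 1.42.0, the tool the authors used, was an alternative. The fit was tested on simulated data. Nothing in the labels says that replicates were separate mice, so p-values measure the spread between these samples, which may be technical. H3K27ac peaks were deposited by the authors as SICER intervals per library, and only their positions were used.

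The members and lists were chosen with earlier results of these data known. The text names the 5 genes of smallest p in each direction among those whose groups did not overlap, and the 2 members of smallest p in each list; other genes, the peritoneal macrophage list and the lists of mitochondrial, ribosomal and proteasome genes were chosen after values were seen. Genes at several loci were not named. Some genes that the rule names are not reported here. Transcript lengths (13989 genes) were those of the longest protein-coding transcript in GENCODE vM1. Counts limit precision only through sampling error. The SE given with ± is the absolute log2 fold change divided by the square root of edgeR's F statistic. Alternatives were other scalings, no filter, other fits, a replicate block, leaving out each library, and, added after seeing the data, a length offset and DESeq2 without LFDHFB replicate 3.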

Additional observations from a re-analysis of the deposited data

Results flagged for a closer look

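For 5 of the genes named, every HFB library pair went one way with diet and every LFB library pair the other. The genes named were picked by their values in HFB recipients, and the share of all genes with this pattern is not given here. The difference, HFB minus LFB diet effect on the log2 scale, was tested with edgeR, and its adjusted p was 0.386 for each, so that none passed. It was 0.92 for Snhg8, the non-coding RNA, 1.01 for Jund, the AP-1 subunit, 0.95 for Hoxa7, a homeobox gene, 1.43 for Spink4 of goblet cells and -1.02 for Ptprc, which encodes CD45. Jund was at 8.07, 8.19 and 8.38 in HFDHFB and 7.74, 7.92 and 7.36 in LFDHFB and at 7.96, 7.63 and 7.84 in HFDLFB and 8.29, 8.10 and 8.47 in LFDLFB. Spink4 was at 8.54, 9.01 and 9.09 in HFDHFB and 8.26, 8.27 and 7.53 in LFDHFB and at 7.87, 7.95 and 8.28 in HFDLFB and 8.44, 9.01 and 8.34 in LFDLFB. Ptprc was at 3.76, 3.40 and 3.66 in HFDHFB and 4.25, 4.10 and 4.09 in LFDHFB and at 4.08, 4.42 and 3.69 in HFDLFB and 3.53, 3.63 and 3.68 in LFDLFB. In each of these genes both diets' groups of 3 libraries lay apart with either donor, in opposite order. For Ptprc in LFB recipients they did so narrowly, with the lowest HFDLFB value at 3.693 and the highest LFDLFB value at 3.684.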

How the results depend on the processing

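For the diet effect in HFB recipients 0 genes were called by edgeR under every scaling, filter and choice of samples, and without each library in turn (0 to 0, with the smallest adjusted p from 0.05298 without HFDHFB replicate 1 to 0.9846 without HFDHFB replicate 3). DESeq2 called 100 higher and 26 lower, or 23 and 20 without LFDHFB replicate 3, an alternative added after seeing the data. An unadjusted p under 0.001 gave 39 and 5. In LFB recipients DESeq2 gave 5 and 4 and the unadjusted threshold 5 and 4, and for the difference between donors 57 and 16, and 16 and 3. A window of 5000 bp raised the mean share of gene starts near an H3K27ac peak to 78.3% in HFDHFB and 76.7% in LFDHFB. The cause of these changes was not tested.

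With the replicate number as a replicate block edgeR called 0 genes (smallest adjusted p 0.7746). Same-numbered libraries of different groups deviated from their group means with correlations of -0.59 to 0.45 over 18 pairs. The labels do not say what a shared number stands for. Since the libraries also differed in their share of tissues, these correlations cannot decide it.

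Log2 fold changes of the genes picked by the naming rule kept their direction in 2086 values and reversed in 13. These include settings that leave out an LFB library, in which both HFB groups stay whole. Genes chosen after values were seen were not counted. Without each library in turn, Hoxc10 ran from -2.78 to 0.42, Ms4a1 from -1.25 to 0.0319, Lpl from -2.31 to 0.32, Elavl4 from -1.38 to 0.52, Nos1 from -1.20 to 0.84 and Cela1 from -0.21 to 0.69. All reversed without LFDHFB replicate 3 except Ms4a1, which did so without LFDHFB replicate 1. With DESeq2 and that library left out the values were 0.44 for Hoxc10, 0.31 for Lpl, 0.51 for Elavl4, 0.83 for Nos1 and -0.22 for Cela1. With the length offset Ltc4s was at -0.0474 and Clps at -0.0104. With all libraries DESeq2 gave no adjusted p to Snx31, which had few counts. Without LFDHFB replicate 3 its DESeq2 adjusted p was 0.00355.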
